A study of Mus musculus with 8 samples.

Results

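The genes described here are the 64 protein-coding mouse genes of the heat shock protein and DnaJ families, out of 24755 genes listed in the series. They were chosen by symbol: Hspa, Hspb, Hspd, Hspe or Hsph followed by a digit, Hsp90, and Dnaja, Dnajb or Dnajc followed by a digit. No measured value entered that rule, although it was set with earlier results of these data known, and 5 symbols of pseudogenes were left out. All 64 were listed for hair follicle stem cells (HFSCs) and 62 for epidermal progenitor cells (EpdSCs), without Dnajb7 and Dnajc12. By family they comprised 10 HSP70 chaperones, 3 HSP110 exchange factors, 3 HSP90 chaperones, 3 genes of the mitochondrial chaperonin, 4 small heat shock proteins and 4 DnaJA, 12 DnaJB and 25 DnaJC genes. Hspb11 was counted among the small heat shock proteins by its symbol alone.

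The data were bulk RNA-seq of cells sorted from mouse dorsal skin in telogen, the resting phase of the hair cycle, with 2 libraries in each of 4 groups. HFSCs came from wild-type (WT) mice of 2 months and from Msx2-KO mice of 6 months, so age and genotype differed together in them, and EpdSCs came from WT and Msx2-KO mice that were all 6 months old. The knockout is constitutive, with a neomycin cassette inserted upstream of exon 2 of Msx2 (a homeobox gene), and so acts in every tissue. HFSCs were gated as CD34+, CD49f+ and Sca-1-, and EpdSCs as CD34-, CD49f+ and Sca-1+, after an overnight trypsin digestion of the skin in the cold. The labels do not say whether the 2 libraries of a group came from separate mice, so p-values measure the spread between these libraries, which may be technical.

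Heat shock proteins are molecular chaperones, proteins that help others fold, refold or reach degradation. HSP70 binds exposed stretches of an unfolded client in a cycle driven by ATP, DnaJ proteins (HSP40) bring the client and start ATP hydrolysis, and HSP110 proteins exchange ADP for ATP to release it. HSP90 completes the folding of kinases and receptors, the chaperonin Hspd1 with its lid Hspe1 encloses clients in the mitochondrial matrix, and small heat shock proteins hold clients without ATP. In the cytosol several of these genes are induced by heat and other stress through heat shock factor 1, which binds alternating GAA and TTC units in promoters. Several members of the endoplasmic reticulum are induced by the unfolded protein response, partly through a composite element with CCAAT and CCACG. In skin, keratinocytes make Hspb1 as they differentiate.

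The promoters of 52 of the 64 genes were matched by symbol to RefSeq windows on GRCm38.p6, and the 250 bases before each start were searched on both strands. The other genes had no window under their symbol and were not searched. The palindrome GAANNTTC, which is also part of the longer heat shock match, occurred in 11 of 69 member promoters (15.9%), against 6.17% of 21263 promoters of protein-coding genes. A run of 3 alternating GAA and TTC units with 2 bases between units occurred on either strand in 4 of 69 (5.8%, against 0.386%), in Hspd1, Hspe1 and both starts of Dnajb6. Hspd1 and Hspe1 share their stretch and both Dnajb6 starts share theirs, so this share counts the same stretches more than once. The element of CCAAT, 9 bases and CCACG occurred in 3 of 69 (4.35%, against 0.132%), in Hspa5, Hsp90b1 and Dnajc3. The stretches are shown because these genes recur in both comparisons below. Capitals mark the matched stretch, spacer bases included, and all are written 5′ to 3′ on the strand of the gene.
Hspe1, chr1:55088053-55088082, plus strand: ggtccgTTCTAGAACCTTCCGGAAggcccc
Dnajb6, chr5:29735844-29735872, plus strand: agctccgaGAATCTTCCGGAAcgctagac
Hspa5, chr2:34772020-34772048, plus strand: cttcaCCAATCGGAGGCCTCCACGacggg
Dnajc3, chr14:118937802-118937870, plus strand: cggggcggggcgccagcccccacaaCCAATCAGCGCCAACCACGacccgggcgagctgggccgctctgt
Hsp90b1, chr10:86705513-86705676, minus strand: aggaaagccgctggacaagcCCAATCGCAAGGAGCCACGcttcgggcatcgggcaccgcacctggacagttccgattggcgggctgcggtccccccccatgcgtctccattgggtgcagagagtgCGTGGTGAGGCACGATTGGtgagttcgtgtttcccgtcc
Hspd1 and Hspe1 lie head to head on chromosome 1 with starts 216 bases apart, and the same units lie between 72 and 89 bases before the Hspe1 start. In GENCODE M21 the Dnajb6 and Hspa5 stretches lie within annotated exons of their own genes, and the Hspe1 stretch within an exon of Hspd1. A match describes letters in a window, and binding was not measured.

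The targeted gene, Msx2, did not separate the genotypes. Its estimated counts in HFSCs were 53 and 7 in WT, against 40 and 18 in Msx2-KO-labelled libraries, and its deposited values in EpdSCs were 58.5 and 85.4 in WT and 150.3 and 22.2 in the others. In what follows, pairs of values joined by "then" give WT first. The log2 fold change, always Msx2-KO minus WT, was -0.20 (SE 1.23) and -0.27 (SE 1.10), so genotypes are given by label and every direction rests on the labels. Counts per gene do not separate the exons around the cassette.

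Libraries also differed beyond the members. HFSC totals ran from 3132974 to 11016659 estimated counts, and genes of the mitochondrial genome took 10.5% and 40.9% of them in WT and 56.6% and 62.1% in Msx2-KO-labelled libraries. In EpdSCs the order was the reverse, with 25.7% and 18.3% in WT, against 5.13% and 8.22% in Msx2-KO-labelled libraries. Deposited totals there ran from 14216500 to 24694400. The 2 Msx2-KO-labelled HFSC libraries correlated at 0.58 over 14422 genes (log2 scale), against 0.93 for WT. In EpdSCs these values were 0.84 and 0.95. Sebaceous gland markers moved with the labels in HFSCs: 6 of the 7 listed were higher in both Msx2-KO-labelled libraries, and their summed level was 172 and 188 in WT and 9325 and 6853 in them, with Cidea at 0 in both WT libraries. In the same libraries 5 of 8 suprabasal markers were higher (1621 and 1768, then 5035 and 18439 summed) and 9 of 10 HFSC markers, among them Cd34 and Krt15, were lower. In EpdSCs the sebaceous sum was 4909.9 and 5209.5 in WT, against 138592 and 14995 in Msx2-KO-labelled libraries. It covered 3 of 8 listed genes, all 3 higher without overlap. Fabp5 alone was at 1279 and 697 in WT, against 114773 and 4821 in Msx2-KO-labelled libraries. The suprabasal sum of EpdSCs was 279139 and 198524 in WT and 48515 and 73915 in the others, with Sbsn and Ivl called lower. The EpdSC marker list, basal keratinocyte genes such as Krt5, Krt14 and Itga6 among them, had 8 of 10 genes of EpdSCs higher in both Msx2-KO-labelled libraries and none lower. Summed it was 201502 and 235390.0 in WT and 1096410.0 and 531240.0 in the others. Of the immune cell list, Cd74 was higher and Ptprc lower without overlap in HFSCs, the 2 genes tested, and 5 of 7 were lower in EpdSCs, with sums of 791 and 69.0 in WT, against 20.2 and 9.54 in Msx2-KO-labelled libraries. Immune genes called numbered 0 in both, with 1 and 3 lower at an unadjusted p under 0.05. In the lists for fibroblasts, endothelial cells and pericytes, melanocytes, muscle and nerve, 0 genes were called in either cell type, with 5 and 2 of their genes at an unadjusted p under 0.05 in HFSCs and EpdSCs. In HFSCs 0 of all 14422 genes tested were called, and EpdSCs had no listed fibroblast gene, so these zeros say little. Of the HFSC genes tested, 2 of 2 for fibroblasts, 2 of 3 for endothelial cells and pericytes and 3 of 4 for melanocytes were lower without overlap. For muscle 1 of 2 was higher, and for nerve 0 of 4 lay on either side. The part of these shifts in the results below was not tested. In bulk samples, fewer cells of a type and less RNA per cell cannot be told apart.

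Hsp90ab1, the constitutive cytosolic HSP90, led the family in every group. On a scale per kilobase of exon (GENCODE M21, 63 of 64 genes with a length), its TMM-normalized count in WT HFSCs was 2463 ± 849.6 (SD, n = 2), against 737 ± 535 for the inducible Hsp90aa1 and 665 ± 328 for the inducible HSP70 gene Hspa1b. These next 2 genes overlapped in their spread. In the Msx2-KO-labelled HFSC libraries, Hsp90ab1 was at 2069.5 ± 308 per kilobase, followed by the constitutive HSP70 gene Hspa8 at 357 ± 32.5 and, within the spread of Hspa8, by Hspa1b and Hsp90b1. In WT EpdSCs the deposited values per kilobase were 10519.9 ± 486 for Hsp90ab1, 2988 ± 94.2 for Hspa1b, 1837 ± 42.0 for Hspa8, 1496 ± 53.4 for Hspb1 and 1425 ± 148 for Hsp90b1, the HSP90 of the endoplasmic reticulum. The last 2 lay within their spread of each other. In the Msx2-KO-labelled EpdSC libraries, the 5 highest were Hsp90ab1, Hspa1b, Dnajc30, Dnajb11 and Hsp90aa1, with Dnajc30 at 1539.6 ± 1606 and Dnajb11 at 1454 ± 1137. Their SDs were so wide that the order after Hsp90ab1 is not resolved. Levels of HFSCs and EpdSCs were scaled in separate tables and are not compared with each other.

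The 62 members listed in both tables took 0.701% and 0.951% of all protein-coding counts in WT HFSCs. In those labelled Msx2-KO they took 0.732% and 0.647%. The corresponding shares in EpdSCs were 0.952% and 0.905%, and 0.99% and 0.593%. The totals included protein-coding genes of the mitochondrial genome. The mitochondrial share of each library differed between the labels, so these shares of members are not free of it. Within the family's total, HSP90 genes took 41.8% and 48.2% in WT HFSCs and 40.5% and 39.2% in Msx2-KO-labelled libraries, while HSP70 genes took 17.5% and 20.6% and then 23.4% and 25.6%. In EpdSCs the HSP70 share went the other way between the labels. It was 26.5% and 27.1% in WT, against 11.4% and 16.4% in Msx2-KO-labelled libraries, and the HSP110 share was 4.35% and 4.36% in WT and 0.631% and 1.63% in the others. The DnaJC share of EpdSCs was 12.5% and 13.2% in WT, against 17.8% and 21.3% in Msx2-KO-labelled libraries. The mitochondrial members took 6.92% and 4.09% in WT HFSCs and 10.1% and 8.72% in those labelled Msx2-KO, and 6.24% and 6.94% and then 13.7% and 15.5% in EpdSCs. In EpdSCs, Dnajc11 and Dnajc30 carried this gap: without them (an alternative chosen after seeing the data) the share was 5.09% and 5.34% in WT, against 4.21% and 7.79% in Msx2-KO-labelled libraries. The shares within the family total given with all members are some of those that did not overlap between groups, and each had p = 0.33 in an exact two-sided permutation test, the smallest that 2 libraries against 2 can give. Shares that overlapped (exact permutation p = 1) included HSP90 in EpdSCs, at 42.5% and 41.7% in WT and 57.0% and 38.5% in the others, and HSP110 and DnaJC in HFSCs, at 6.06% and 6.34%, then 7.3% and 5.92%, and 19.0% and 11.5%, then 13.9% and 16.5%.

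**Figure D1:**
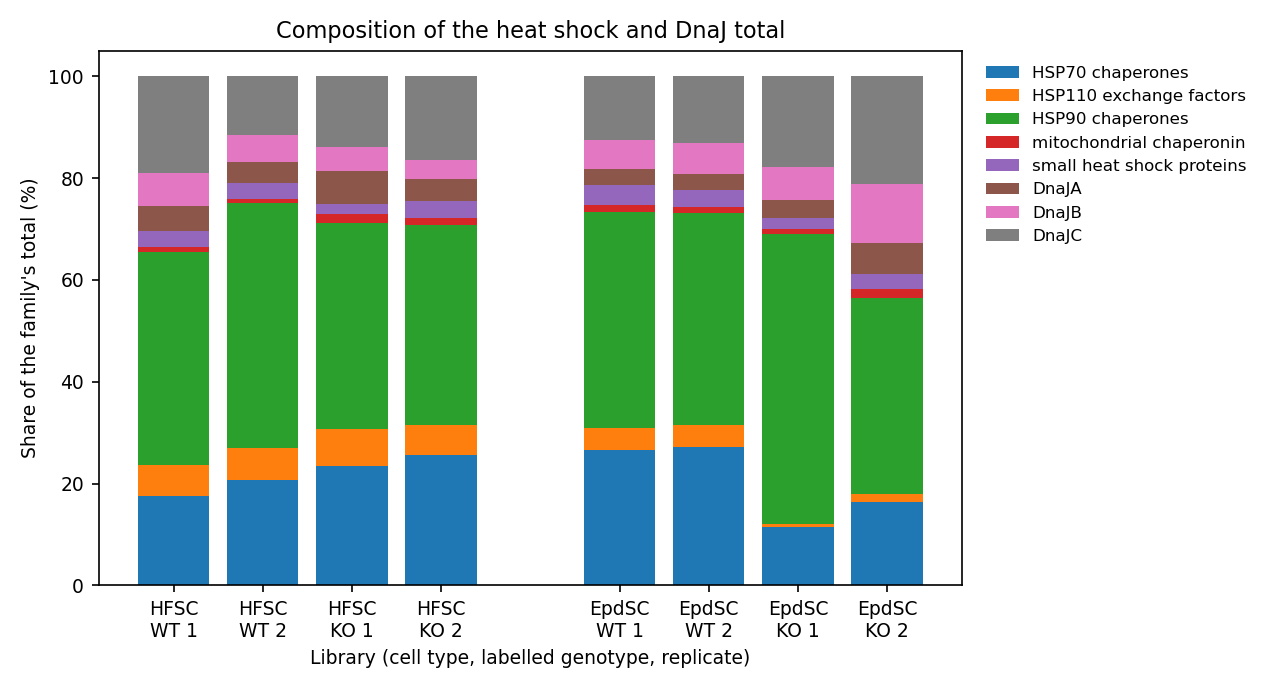
Stacked bars give the share (%) of the summed heat shock and DnaJ counts (HFSCs) or deposited values (EpdSCs) that each family took in each of the 8 libraries, over the 62 genes in both tables. HSP90 genes form the largest block in every library, and HSP70 genes take 26.5% and 27.1% in WT EpdSCs and 11.4% and 16.4% in EpdSCs labelled Msx2-KO.

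In HFSCs the comparison asked which genes differed between WT and Msx2-KO stem cells. No heat shock or DnaJ gene was called. Hspe1 of the mitochondrion lay higher in Msx2-KO-labelled libraries, and the inducible cytosolic HSP90, Hsp90aa1, and the DnaJB cochaperones Dnajb1 and Dnajb4 lay lower, with no overlap between groups. With edgeR, 60 of the 64 genes passed the filter on low counts and 0 were called (adjusted p under 0.05 and more than 2-fold), beside 0% of the 14422 genes tested. At an unadjusted p under 0.05 there were 2 members higher and 4 lower, beside 765 and 1849 of all genes. DESeq2 called 2 members, Hspe1 higher and Dnajc25 lower (4.67% of all genes called), and limma-trend called Dnajc12, Dnajc25 and Dnajc27 lower (9.76%). The median log2 fold change was -0.23 over the members, -0.14 over all genes and -0.12 over protein-coding genes. Placing members at 0 counts at their bound could not move the members' median, because those bounds also lie below it. Both Msx2-KO-labelled libraries lay above both WT libraries in 8 of 60 members (13.3%) and below in 22 (36.7%), against 18.3% and 31.8% of 11763 protein-coding genes. Scaling by library totals moved the median of all genes by -0.86, so differences are best read against that median.

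Without replicate 1 of Msx2-KO-labelled libraries, 5 members were called higher and 12 lower (36.6% of all genes), and without replicate 2 the numbers were 7 and 15 (59.1%). Each of these fits assumes that the lone library varies like the WT group. Both fits, which share the WT libraries, called 6 of 60 members (10%) in the same direction, beside 17.9% of all genes. These were Hspe1 higher and Dnajb9, Dnajc8, Dnajc21, Dnajc25 and Dnajc27 lower. Without WT replicate 1, Hsp90aa1 alone was called, at -2.25.

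Hspe1 (chr1:55088132-55091307, GRCm38), the lid of the mitochondrial chaperonin, gave the largest difference upward. Its normalized counts were 17.2 and 7.91 in WT, against 218.6 and 171 in Msx2-KO-labelled libraries, from 20.7 and 4.01, then 328 and 132 estimated counts. Both Msx2-KO-labelled libraries were high, and the log2 fold change was 3.91 (SE 0.73, adjusted p = 0.143). Hspd1, which forms the chaperonin's barrel from the same promoter region, did not follow Hspe1. It had 135 and 154 in WT, against 135 and 123 in Msx2-KO-labelled libraries, overlapping groups and a log2 fold change of -0.16 (SE 0.44). Exons of Hspd1 and Hspe1 overlap on opposite strands, and whether counting used strand is not given in the sources used here.

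Among the HSP70 genes, Hspa9, the HSP70 of the mitochondrial matrix, had 649 and 586 normalized counts in WT, against 1358 and 935 in Msx2-KO-labelled libraries. The groups did not overlap, with a log2 fold change of 0.89 (SE 0.28, unadjusted p = 0.0328, adjusted p = 0.215), which was 0.047 with library totals (adjusted p = 0.984). Hspa5 (BiP), the HSP70 of the endoplasmic reticulum, had 457 and 576, then 746 and 699, a log2 fold change of 0.49 that turned to -0.31 with library totals. Its unstressed cytosolic relative Hspa8 was at 537 and 1579 in WT, against 1436 and 1634 in Msx2-KO-labelled libraries. Here the WT libraries differed more from each other than the labels did, and the log2 fold change of 0.54 turned to -0.11 with library totals. Hspa13, a microsomal HSP70-like protein, had 38.4 and 41.5, then 75.3 and 168, both higher, at 1.60 (SE 0.78).

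The heat-inducible pair Hspa1a and Hspa1b, near-identical neighbours on chromosome 17 between whose counts reads may be split, showed no order by label. Hspa1b had 1216 and 2514 in WT, against 439.9 and 1488 in Msx2-KO-labelled libraries, and Hspa1a had 280.2 and 813, then 632 and 277. In both genes WT replicate 2 was the highest of the 4 libraries. Hspa2, best known from spermatogenesis, also overlapped, with 101 and 140.4 in WT and 141 and 63.6 in the others.

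The HSP110 genes did not move together. Hspa4 had 440.3 and 643 in WT, against 814.5 and 731 in Msx2-KO-labelled libraries, at 0.52 with TMM scaling and -0.25 with library totals. Hspa4l, with 621 and 878, then 786 and 401, overlapped. Hsph1, the most heat-inducible of the 3, had 109 and 435 in WT, against 0.667 and 88.3 in Msx2-KO-labelled libraries, from 1 and 68 estimated counts in the latter. The groups did not overlap, but both spanned several fold, and the log2 fold change of -2.63 had an SE of 1.97.

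Of the HSP90 genes, Hsp90aa1 separated the labels and Hsp90ab1 did not. Hsp90aa1 had 1412 and 4383 normalized counts in WT, against 1010.4 and 861 in Msx2-KO-labelled libraries, a log2 fold change of -1.63 (SE 0.61, unadjusted p = 0.0544, adjusted p = 0.291). WT replicate 2 was the highest, and without it the log2 fold change was -0.69. Hsp90ab1 had 5585 and 9188 in WT and 6859 and 5554 in the others. Hsp90b1 had 1082 and 1288, then 1012 and 1668, and its log2 fold change of 0.18 turned to -0.67 with library totals. Of the small heat shock proteins, Hspb8, a partner of Bag3 in selective autophagy, had 431 and 651 in WT, against 293 and 316 in Msx2-KO-labelled libraries, at -0.83 (SE 0.31, adjusted p = 0.292). Hspb1 overlapped, with 114 and 281, then 68.7 and 220.8.

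**Figure D2:**
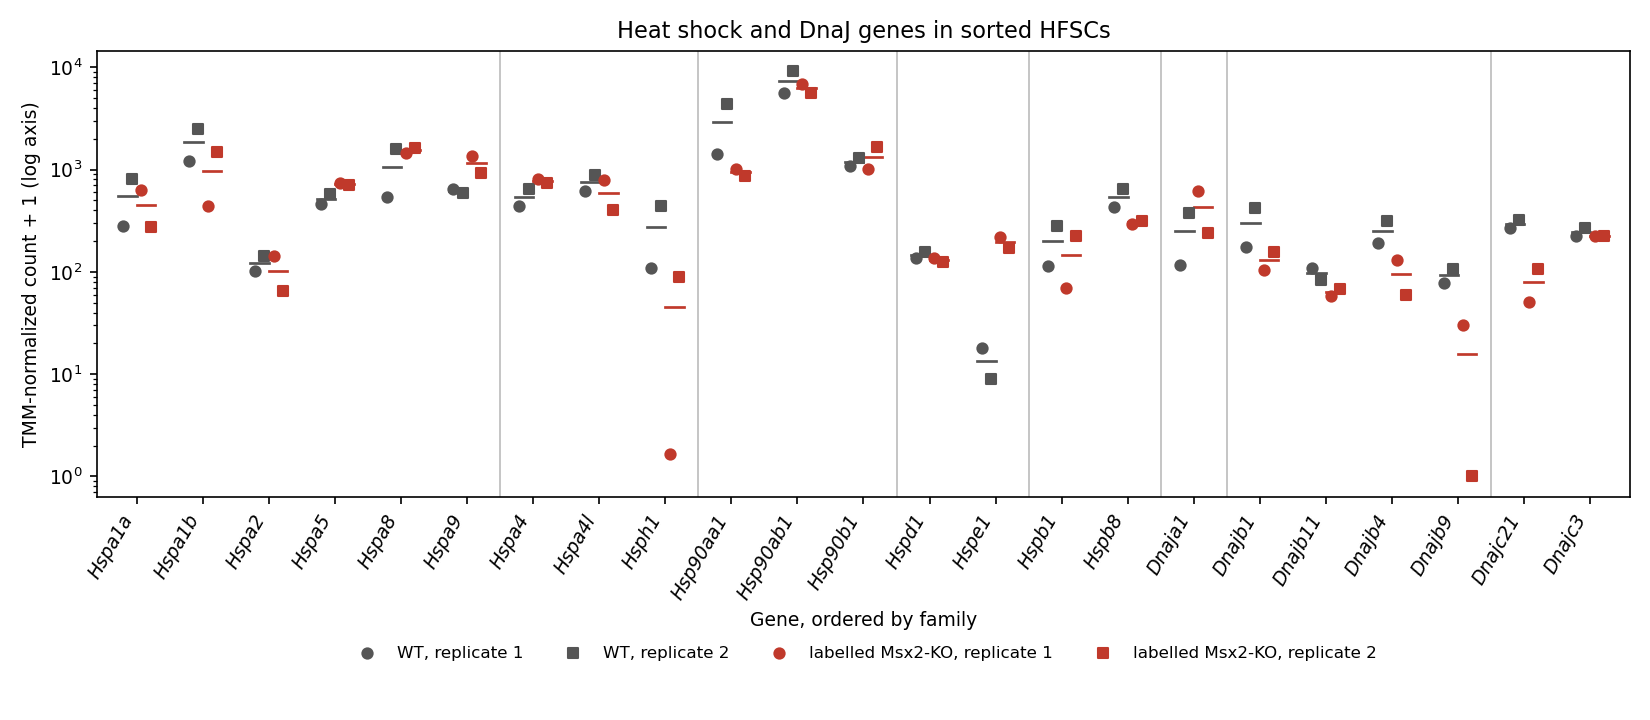
Points give the TMM-normalized count plus 1 (log axis) of 23 named members in the 4 HFSC libraries, circles for replicate 1 and squares for replicate 2, with a bar at each group's mean and grey lines between families. Hspe1 lies at 17.2 and 7.91 in WT, against 218.6 and 171 in Msx2-KO-labelled libraries, and WT replicate 2 is the highest library for Hspa1a, Hspa1b, Hsp90aa1, Hsph1 and Dnajb1.

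In 6 of 11 DnaJB genes tested in HFSCs, both Msx2-KO-labelled libraries lay below both WT libraries, and in 0 above, beside 31.8% and 18.3% of protein-coding genes. Dnajb1, the main heat-inducible partner of HSP70, had 175 and 419 in WT and 103 and 157 in the others (-1.19, SE 0.58), and Dnajb4 had 191 and 311, then 131 and 58.4 (-1.40, SE 0.60). Dnaja1, a farnesylated type A cochaperone, overlapped, with 117 and 378 in WT, against 616 and 238 in Msx2-KO-labelled libraries. In the endoplasmic reticulum, Dnajb9 (ERdj4) had 77.6 and 105 in WT and 29.3 and 0 in the others, and Dnajb11 (ERdj3) had 108 and 83.1, then 56.7 and 67.5. Both were lower without overlap at -2.60 (SE 2.06) and -0.62 (SE 0.68). Dnajc3 (p58IPK), an inhibitor of the kinase PERK, was nearly level, at 222.2 and 265 in WT, against 221.9 and 220.8 in Msx2-KO-labelled libraries.

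Dnajc21, a cochaperone in ribosome maturation (chr15:10446756-10470516), stood below WT in both libraries with less spread than Hsph1. It had 265 and 320.4 normalized counts in WT, against 49.99 and 107 in Msx2-KO-labelled libraries, a log2 fold change of -1.91 (SE 0.54, unadjusted p = 0.0223, adjusted p = 0.168). Dnajc25, of the endoplasmic reticulum, had 63.7 and 57.4 in WT and 0 counts in both Msx2-KO-labelled libraries, at least 45.8-fold lower when 3 counts over the group are taken as the floor. Exons of Dnajc25 overlap those of Gm20503 on the same strand. How reads were shared between the 2 is not given in the sources used here, and the floor does not cover it. By the same floor Dnajc27 was at least 16.7-fold lower and Dnajc12 at least 8.2-fold lower. The Msx2-KO-labelled libraries listed 53 and 54 of the 62 shared members above 0 and the WT libraries 62 each. They also listed fewer genes, 11409 and 14251 with at least 1 count against 22447 and 19595 in WT.

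The 4 members below the filter in HFSCs were Dnajb7, Dnajc6, Dnajc30 and Hspa12b, with at most 33.3 and 4.3 estimated counts in the WT libraries. Of these, Dnajc6, the auxilin that uncoats vesicles in neurons, Dnajc30 and Hspa12b had 0 counts in both Msx2-KO-labelled libraries, at least 5.21-fold, 13.2-fold and 5.65-fold lower by the floor. Among the remaining DnaJC genes, Dnajc8, a splicing-associated protein, had 230.4 and 174 in WT and 82.6 and 98.7 in the others (-1.16, SE 0.45). Dnajc7, which carries tetratricopeptide repeats that bind HSP70 and HSP90, had 459.9 and 402, then 269.9 and 329 (-0.53, SE 0.27), and Dnaja2, the partner of Hspa8 in the cytosol, had 389.6 and 431, then 321 and 288 (-0.43, SE 0.25). All 3 were lower without overlap. At the other end, Dnajc15, of the mitochondrial import motor, had 37.6 and 35.6 in WT, against 134 and 41.6 in Msx2-KO-labelled libraries (1.26, SE 0.98).

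By compartment, the 9 mitochondrial members tested had a median log2 fold change of 0.59 in HFSCs, or -0.25 with library totals, with 4 higher without overlap and 1 lower. The 12 members of the endoplasmic reticulum had -0.34, with 2 higher and 7 lower. The 13 heat-inducible members had -0.45, with 1 higher (Hspe1) and 5 lower. That list is not a compartment, and includes the constitutive Hspa8 and the mitochondrial Hspd1 and Hspe1 counted above. For protein-coding genes these shares were 18.3% higher and 31.8% lower. Summed, the heat-inducible members were at 5354 and 12804 in WT, against 5871 and 6034 in Msx2-KO-labelled libraries, so that WT replicate 2 alone stood apart. The 17 immediate early genes, which a cell switches on within minutes of a stimulus, stood apart in the same library, at 9392 and 42123 in WT and 8003 and 4548 in the others. Fos was at 333 and 5287 in WT, against 44.0 and 29.9 in Msx2-KO-labelled libraries. Without WT replicate 2 the median of the heat-inducible members was -0.16, and without WT replicate 1 it was -0.97.

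In EpdSCs the same comparison called 1 member, Dnajc1, lower. Without a call, the HSP70 genes Hspa8 and Hspa2 and the HSP110 gene Hspa4 lay below WT in both Msx2-KO-labelled libraries, and DnaJ genes lay on both sides, with Dnajb11, Dnajb6, Dnajc11 and Dnaja3 above WT and Dnajc1, Dnajc2 and Dnajb12 below. With limma on log2(value + 1), 0 of 62 members were called higher and 1 lower, beside 1.57% and 7.78% of 16231 genes (9.35% in all). At an unadjusted p under 0.05 there were 9 members on each side, beside 1974 higher and 3752 lower over all genes. The median was -0.14 over the members, -0.64 over all genes and -0.32 over protein-coding genes, the type of all members. Among genes with a mean of at least 100 it was 0.083 over the members and 0.038 over protein-coding genes. Both Msx2-KO-labelled libraries lay above both WT libraries in 18 of 62 members (29.0%) and below in 22 (35.5%), against 31.2% and 40.3% of 12348 protein-coding genes. With edgeR on the counts recovered from the deposited values, 0 genes were called, members included, with 13 members higher and 7 lower at an unadjusted p under 0.05, of 2665 and 2515 genes.

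The 2 Msx2-KO-labelled libraries differed from each other more than 2-fold in 35 of 62 members, against 2 for WT. Their summed level over the family was 230928 and 74213, against 99022 and 93201 in WT. Without replicate 1 of them 6 members were called higher and 13 lower (37.6% of all genes), and without replicate 2 the numbers were 20 and 19 (63.9%). Both fits, which again share the WT libraries, called 14 of 62 members (22.6%) in the same direction, beside 31.1% of all genes. Higher were Dnaja3, Dnajb3, Dnajb6, Dnajb11 and Hspa13, and lower were Dnajb12, Dnajb13, Dnajc1, Dnajc2, Dnajc28, Hspa2, Hspa4, Hspa8 and Hspe1. Leaving out WT replicate 1 or WT replicate 2, limma called 0 genes, with 2060 and 2077 genes and 3 members each at an unadjusted p under 0.05.

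Dnajc1 (chr2:18195654-18392830, GRCm38), a membrane DnaJ protein of the endoplasmic reticulum with a cytosolic part that binds ribosomes, fell. Its deposited values were 753 and 697 in WT, against 59.8 and 100.4 in Msx2-KO-labelled libraries, with means of 725 ± 39.7 (SD, n = 2) and 80.1 ± 28.7 (SD, n = 2). The log2 fold change was -3.21 (SE 0.53, adjusted p = 0.0489). The call was lost with a pseudocount of 0.1 (adjusted p = 0.0697) and under 6 other settings, within a range from 0.00937 to 0.389 over all settings. An exon of Mllt10 overlaps Dnajc1 on the other strand. In HFSCs Dnajc1 was nearly level, at 287 and 279 in WT and 239.9 and 275 in the others.

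Among HSP70 genes of EpdSCs, Hspa8 had deposited values of 7774 and 8029 in WT, against 1055 and 2826 in Msx2-KO-labelled libraries, a log2 fold change of -2.19 (SE 0.69, unadjusted p = 0.0359, adjusted p = 0.121). Introns of Hspa8 hold small nucleolar RNAs that the annotation lists as genes of their own. Hspa2 had 751 and 690.5, then 160.4 and 82.9 (-2.63, SE 0.57, adjusted p = 0.0721), and Hspa12a, a distant member of the family, had 975 and 587, then 15.3 and 177 (-3.82, SE 1.36). Hspa13 was the exception, with 219.9 and 212 in WT, against 729.7 and 871 in Msx2-KO-labelled libraries (1.88, SE 0.47, adjusted p = 0.0872). In all, 9 of 10 HSP70 genes had a negative log2 fold change, beside 59.7% of all genes tested, and 5 lay lower without overlap, beside 40.3% of protein-coding genes. The inducible Hspa1b, at 8562 and 8189 in WT, had 16010.4 and 3056 in Msx2-KO-labelled libraries, 1 on each side of WT, and Hspa1a likewise had 2732 and 2688, then 3057 and 1364. Hspa5 had 2355 and 1975 in WT and 3116 and 1451 in the others, overlapping, and Hspa9 had 2558 and 2625, then 2116 and 2042, a narrow gap at -0.32 (SE 0.46).

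The exchange factor Hspa4 showed one of the widest gaps, 2527 and 2377 in WT, against 167 and 428 in Msx2-KO-labelled libraries (-3.19, SE 0.67, adjusted p = 0.0681). Hspa4l had 600.1 and 698, then 172 and 487, and Hsph1 had 1184 and 987, then 1118 and 292 with overlap. Of the HSP90 genes, Hsp90b1 was lower without overlap, 6168 and 5322 in WT and 2683 and 2738 in the others (-1.08, SE 0.46). Hsp90ab1 had 32579 and 30519 in WT, against 121455 and 23487 in Msx2-KO-labelled libraries, and its log2 fold change was 0.76 with both and -0.42 without replicate 1. Hsp90aa1 had 3312 and 2997, then 7557 and 2341, and its 0.42 turned to -0.12 when values were scaled without mitochondrial and ribosomal RNA genes, which moved the median of all genes by -0.50. For the chaperonin, Hspe1 had 446 and 530.1 in WT, against 169 and 143 in Msx2-KO-labelled libraries (-1.64, SE 0.47, adjusted p = 0.108), while Hspd1 had 897 and 584, then 1780.0 and 996 (0.88, SE 0.59). Of the small heat shock proteins, Hspb1 had 1582 and 1504, then 1321 and 759, lower without overlap at -0.62 (SE 0.54). Hspb8 had 2124 and 1438, then 3437 and 1349, overlapping, and its log2 fold change of 0.30 turned to -0.24 under the same scaling.

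**Figure D3:**
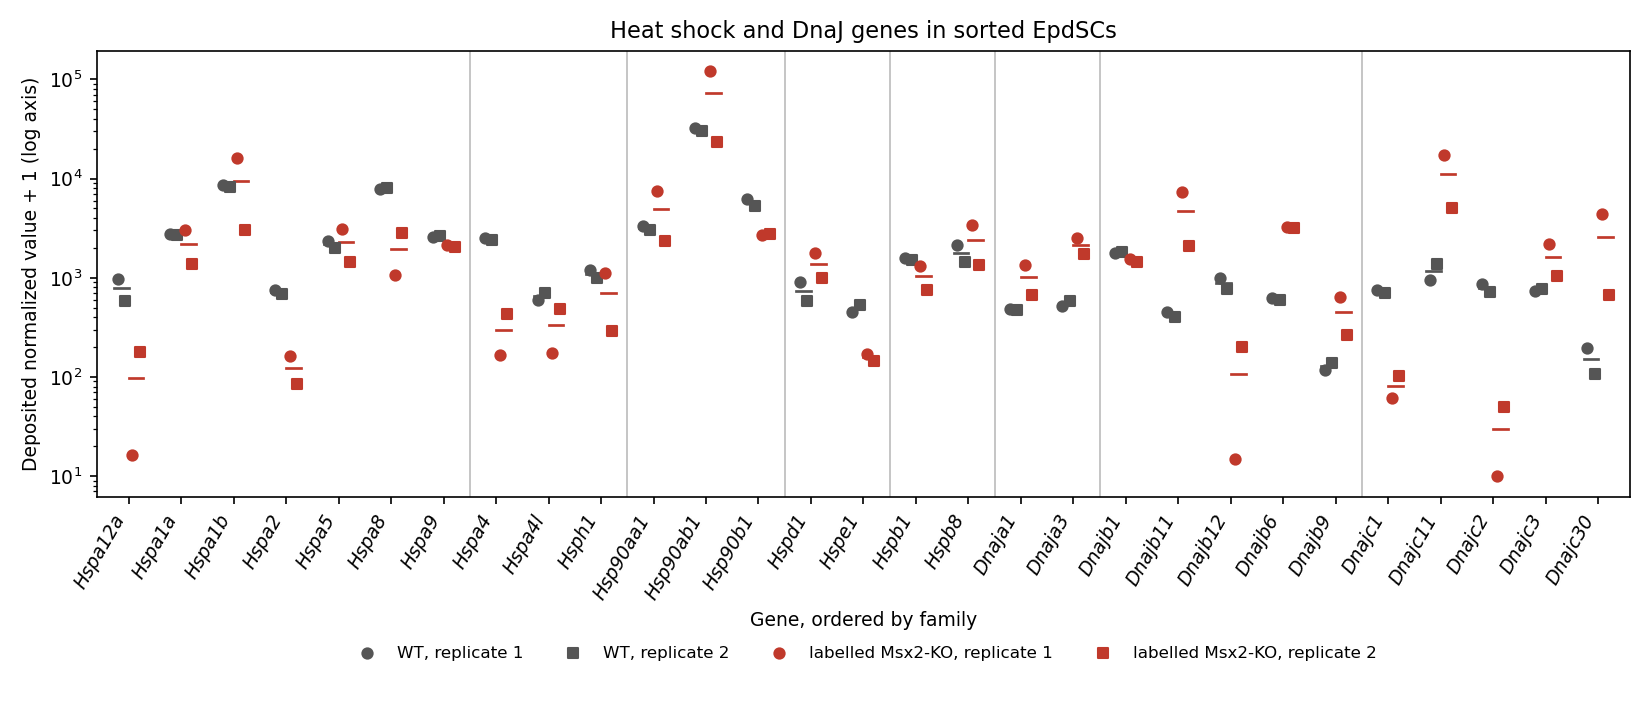
Points give the deposited normalized value plus 1 (log axis) of 29 named members in the 4 EpdSC libraries, with symbols and bars as for HFSCs. WT replicates nearly coincide, whereas Msx2-KO-labelled libraries spread apart, for example at 17352 and 5047 for Dnajc11, and Dnajb6 lies at 618 and 599 in WT and 3231 and 3164 in them.

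Dnajb6, a cochaperone that suppresses aggregation and keeps keratin filaments in order, was higher in both Msx2-KO-labelled libraries, which nearly coincided. It had 618 and 599 in WT, against 3231 and 3164 in Msx2-KO-labelled libraries, with a log2 fold change of 2.39 (SE 0.46, adjusted p = 0.0603). It was called with a pseudocount of 10, together with Dnajc1, Dnajc2, Hspa2 and Hspa4, all lower. In HFSCs its groups overlapped, at 143 and 150.3, then 346 and 36.4. Dnajb11, which works with BiP, had 448 and 400.3 in WT, against 7304 and 2103 in Msx2-KO-labelled libraries (3.21, SE 0.80, adjusted p = 0.0871). Dnajb9 had 116 and 138, then 637 and 265 (1.69, SE 0.65), and Dnajc3 had 739 and 777, then 2185 and 1035 (0.99, SE 0.60). Against these 3, Dnajb12, which anchors in the membrane of the endoplasmic reticulum, had 995 and 764 in WT and 14.01 and 199 in the others (-4.00, SE 1.44). The 12 members of that compartment thus split evenly, 6 positive and 6 negative, with a median of 0.48 that turned to -0.05 without mitochondrial and ribosomal RNA genes and to -0.06 without replicate 1 of Msx2-KO-labelled libraries.

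In the mitochondrion, 7 of 10 members had a positive log2 fold change (median 0.74). Dnajc11, of the inner membrane organizing complex, had 951 and 1386 in WT, against 17352 and 5047 in Msx2-KO-labelled libraries (3.03, SE 0.82, adjusted p = 0.0971). Dnaja3 (Tid1), the matrix partner of Hspa9, had 518 and 585, then 2512 and 1754 (1.93, SE 0.50), and its exons overlap those of Vasn and Coro7. Dnajc30, a gene without introns whose exon overlaps Bud23 on the other strand, had 193 and 106 in WT, against 4443 and 672 in Msx2-KO-labelled libraries. These lay far apart, and the SE of its log2 fold change of 3.58 was 1.13. Dnajc2 (Mpp11), which sits on the ribosome with Hspa14, had 862 and 713 in WT and 8.91 and 49.2 in the others, the lowest log2 fold change of the family at -5.14 (SE 0.97, adjusted p = 0.0589). Dnaja1 (482 and 470.3, then 1342 and 669.7) lay higher without overlap and Dnajb1 (1775 and 1838, then 1557 and 1452) lower, at 0.99 (SE 0.58) and -0.26 (SE 0.46). Dnajb4 had 523 and 615, then 840.4 and 700.3, and its log2 fold change of 0.44 turned to -0.10 without mitochondrial and ribosomal RNA genes.

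The remaining EpdSC members ran from -4.32 for Dnajb13 to 2.34 for Dnajb3, both low genes best known from testis. Dnajb13 had 53.1 and 76.1 in WT, against 0 and 9.47 in Msx2-KO-labelled libraries, and Dnajb3 had 27.1 and 31.3, then 183 and 125. Dnajc8 was higher without overlap, 848 and 736 in WT and 3087 and 1896 in the others (1.61, SE 0.53), as was Dnajc25, at 110.1 and 155, then 406 and 346 (1.51, SE 0.50). Dnajc28, a mitochondrial member, was lower, at 81.2 and 74.9, then 19.1 and 24.9 (-1.79, SE 0.48). Dnajc21, which stood apart in HFSCs, overlapped here at 816 and 651 in WT, against 1133 and 404 in Msx2-KO-labelled libraries.

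Side by side, the median log2 fold changes of the cell types had opposite signs in 6 of the 8 families, all but HSP110 and DnaJB, but in 3 with library totals and in 3 without mitochondrial and ribosomal RNA genes. DnaJA was the one family in all 3 counts. The signs take no account of the median of all genes, -0.14 in HFSCs and -0.64 in EpdSCs. HSP70 genes had a median log2 fold change of 0.49 over 9 genes in HFSCs, which turned to -0.31 with library totals, and -0.98 over 10 in EpdSCs. For the DnaJA genes these medians were -0.19 and 0.92, and for the DnaJB genes -0.87 and -0.25. For the small heat shock proteins they were 0.25 and -0.16, with Hspb6 and Hspb11 positive and Hspb1 and Hspb8 negative in HFSCs. The mitochondrial members had 0.59 in HFSCs (-0.25 with library totals) and 0.74 in EpdSCs, where Dnajc11, Dnajc30 and Dnaja3 were highest in log2 fold change. The difference between cell types was not tested, because the tables were normalized separately and the WT mice differed in age.

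**Figure D4:**
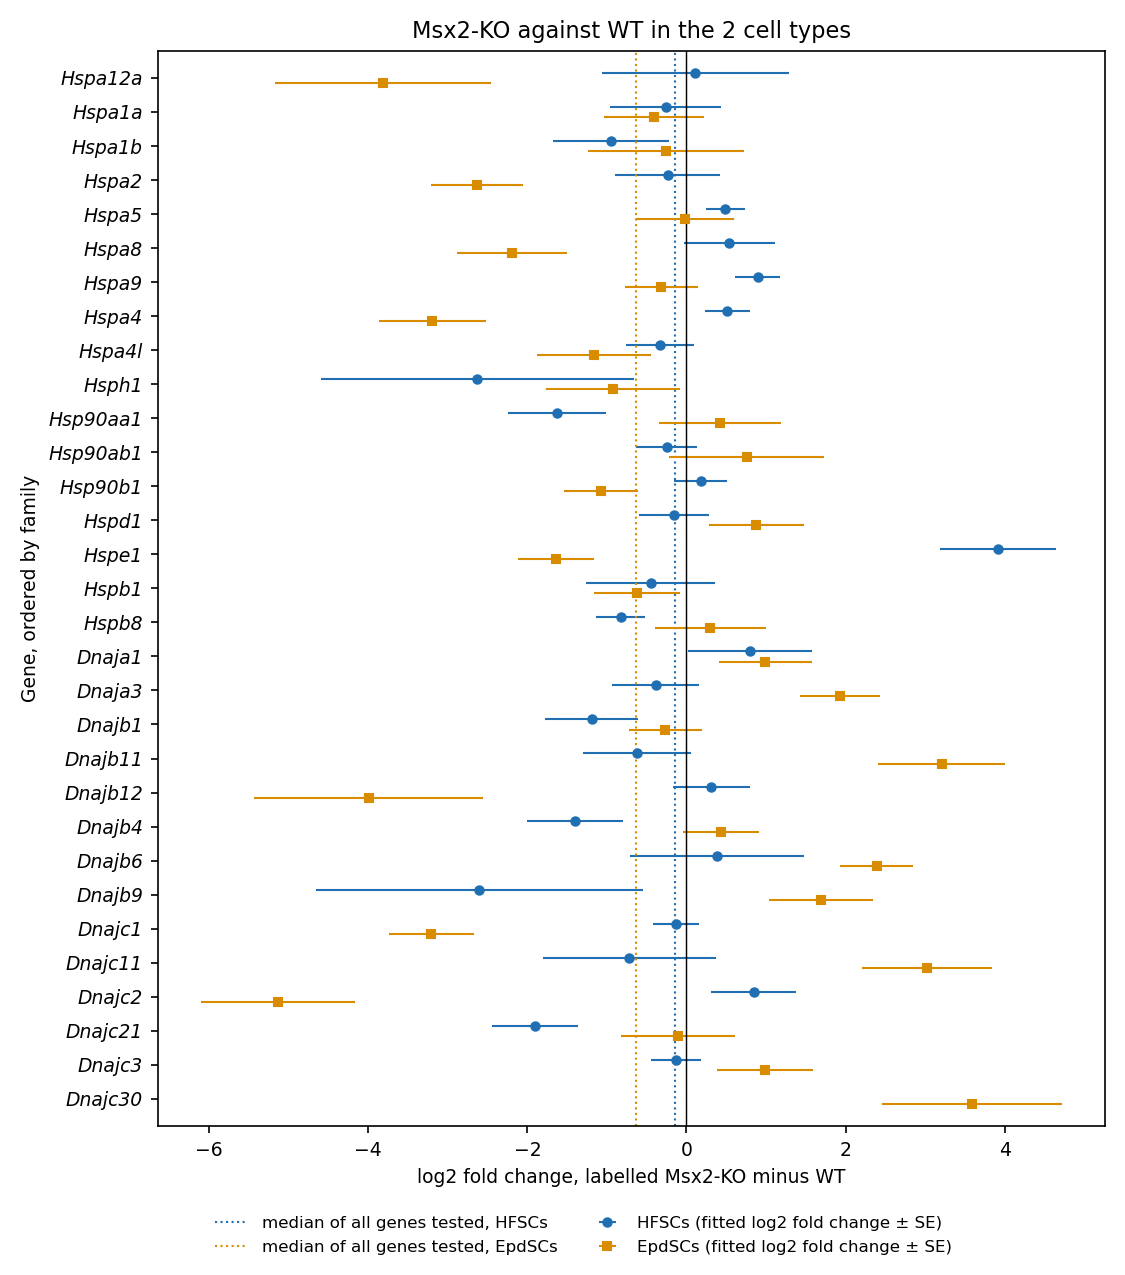
Points give the fitted log2 fold change, Msx2-KO-labelled libraries minus WT, with its SE for the members named in either cell type (edgeR for HFSCs, limma on log2(value + 1) for EpdSCs), and dotted lines the median of all genes tested. Hspe1 and Hspa4 lie on opposite sides of 0 in the cell types, as do Dnajb9, Dnajb11 and Dnaja3, although with library totals Hspa4 was at -0.25 in HFSCs.

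The wider chaperone network was read from lists of genes that work with the family. Among heat shock factors, Hsf1 had 168 and 129 normalized counts in WT HFSCs and 249.9 and 216 in those labelled Msx2-KO (0.65, SE 0.38). In EpdSCs it had 470.1 and 478, then 96.8 and 95.7 (-2.29, SE 0.46, adjusted p = 0.0639), and Hsf2 had 872 and 799, then 154 and 133. Hsbp1, which binds heat shock factor trimers, had 109 and 91.0 in WT HFSCs and 265 and 366 in the others (1.66, SE 0.38, adjusted p = 0.143), and overlapped in EpdSCs. None of 4 factors tested was called in either cell type, and at an unadjusted p under 0.05 there were 2 in each.

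Of the HSP70 and HSP90 cochaperones, 0 of 24 tested were called in HFSCs and 0 of 25 in EpdSCs (1 and 3 higher, and 1 and 4 lower, at an unadjusted p under 0.05). The highest of them in HFSCs were Cdc37l1 (711 and 1011 in WT, 685 and 747 in Msx2-KO-labelled libraries) and Cdc37 (574 and 591, then 545 and 619.5), the latter of which loads kinases onto HSP90. In EpdSCs they were Ptges3 (p23), with 1059.9 and 883 in WT and 11564 and 6236 in the others (3.13, SE 0.57, adjusted p = 0.0557), and Cdc37, with 3079 and 2885, then 4384 and 1194. For the cytosolic chaperonin TRiC and prefoldin the median was 0.72 in HFSCs (-0.19 with library totals) and 0.55 in EpdSCs, with 0 of 14 called in each, beside 2 higher at an unadjusted p under 0.05 in HFSCs and 3 on each side in EpdSCs. Tcp1 (379.8 and 500.5, then 786 and 719.5) and Cct5 (378 and 315, then 760.5 and 474) led it in HFSCs, and Cct8 (1394 and 1179, then 10960.0 and 3786) and Cct4 (2089 and 2019, then 5097 and 6216) in EpdSCs.

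Of 21 genes of folding in the endoplasmic reticulum and the unfolded protein response, 1 was called in EpdSCs. Manf, a secreted factor induced by that response, rose from 532 and 460.0 in WT to 8540.3 and 4808 in Msx2-KO-labelled libraries (3.69, SE 0.55, adjusted p = 0.0413). The list's median was -0.25, with 7 genes higher and 9 lower without overlap, beside 31.2% and 40.3% of protein-coding genes. P4hb, a disulfide isomerase, had 3273 and 3263, then 15110.1 and 13545, and the lectin chaperone Canx 5330.2 and 5134, then 20268 and 5856. In HFSCs 0 of 20 were called, with 3 higher and 1 lower at an unadjusted p under 0.05, and the highest were Calr (931 and 1128, then 711 and 796) and Canx (958 and 1141, then 943 and 857). Of 10 mitochondrial cochaperones and proteases none was called, with 1 on each side at an unadjusted p under 0.05 in HFSCs and 1 lower in EpdSCs, and their medians were 0.39 in HFSCs (-0.41 with library totals) and -2.82 in EpdSCs. Grpel1, the exchange factor of Hspa9, had 76.8 and 75.2 in WT HFSCs and 303 and 239 in those labelled Msx2-KO (1.83, SE 0.40, adjusted p = 0.143), alongside Lonp1 (255 and 299, then 321 and 259.8). In EpdSCs the highest were Timm44 (754 and 811, then 2441 and 810.1) and Trap1 (927 and 840.3, then 397 and 1219), which overlapped.

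The median log2 fold change of the immediate early genes was -2.09 over 17 genes in HFSCs, where Klf4 (2582 and 9210.0, then 1283 and 1422) and Jun (2068 and 6391, then 1099 and 335) were highest. In EpdSCs it was 1.21 over 18 genes, 11 of them higher without overlap, beside 31.2% of protein-coding genes. Fos had 953 and 3052 in WT EpdSCs and 31292 and 23996 in those labelled Msx2-KO, and Dusp1 had 1659 and 2838, then 13126 and 36899. None was called in either cell type (1 higher and 6 lower in HFSCs and 7 higher in EpdSCs at an unadjusted p under 0.05). The heat-inducible members of EpdSCs, Hspa8, Hspd1 and Hspe1 included, did not follow. Summed they were at 31992 and 30567 in WT, against 39417 and 16436 in Msx2-KO-labelled libraries. Whether the digestion or the sort bears on these genes was not tested.

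**Figure D5:**
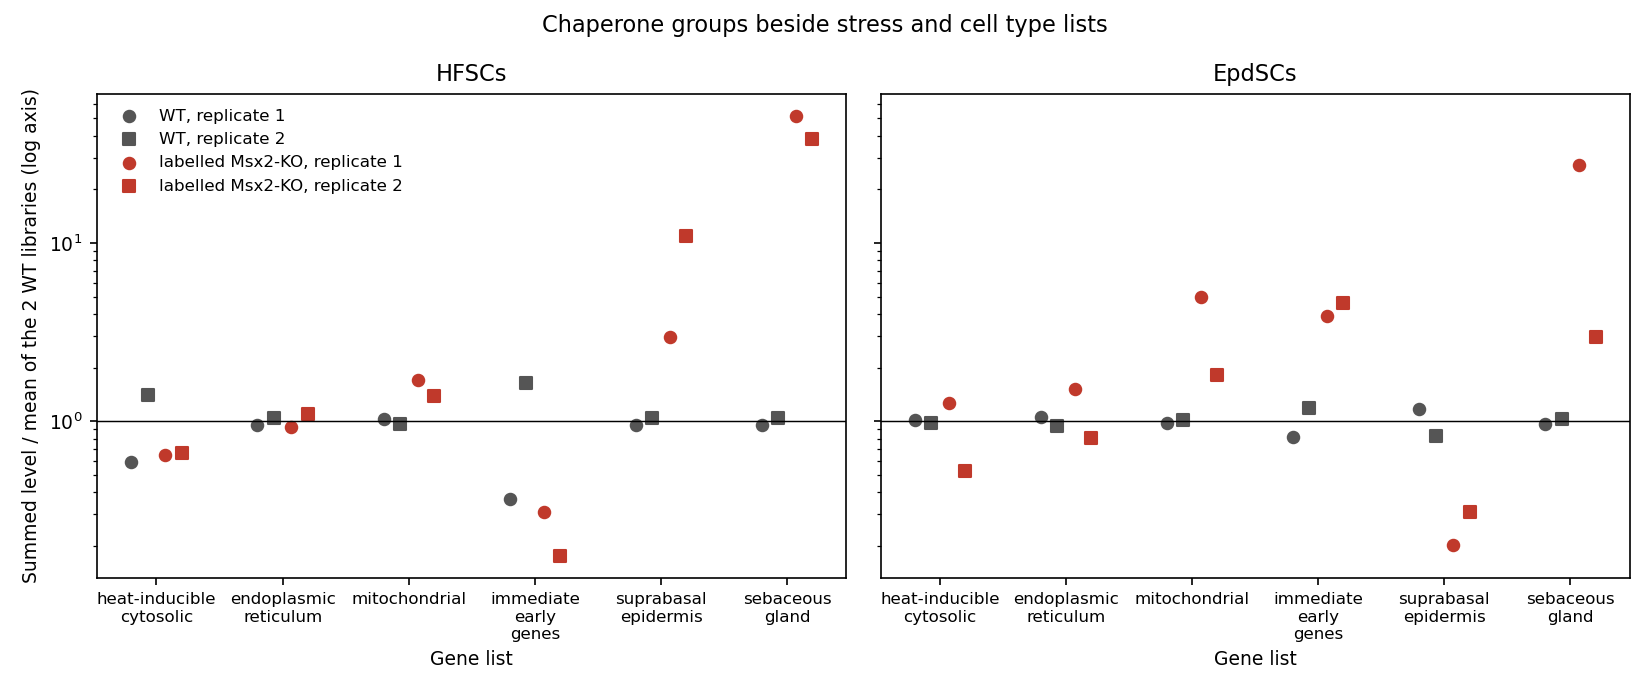
Each point is the summed level of a gene list in 1 library divided by the mean of the 2 WT libraries of that cell type (log axis), for 3 groups of chaperones, immediate early genes and 2 marker lists of other skin cells. In HFSCs the heat-inducible members and the immediate early genes are both highest in WT replicate 2, and the sebaceous markers of both cell types lie above WT in Msx2-KO-labelled libraries. Hspd1 and Hspe1 count in both the heat-inducible and the mitochondrial group, and the former group also holds Hspa8.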

How the data were processed

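Total RNA libraries of 4 HFSC and 4 EpdSC samples were aligned by the authors with STAR 2.7.3a in Partek Flow to GRCm38/mm10 and annotated with GENCODE M25, per the paper's methods and the submitters' processing notes. The authors deposited HFSC data as estimated counts per gene, not normalized. For EpdSCs the deposited values are a normalized signal, estimated counts divided by 1 factor per library (1 count is worth 1.08 and 0.948 in WT, against 1.27 and 0.674 in Msx2-KO-labelled libraries, and 73.2% to 82.6% of low values came out whole within 0.02 of a count). Gene type in EpdSCs was read from the table of the authors' comparison. The fold changes and p-values they deposited for both comparisons were not used. All value columns were mapped to samples.

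HFSC counts were rounded, scaled by TMM, filtered with filterByExpr and tested with edgeR 4.0.16 (quasi-likelihood). Normalized counts refer to a library of 6119092 counts. The EpdSC table was analysed by limma 3.58.1 on log2(value + 1), so that fold changes of low genes are understated. Each test covered all genes of its table, with Benjamini-Hochberg adjustment, and a call needed an adjusted p under 0.05 and a fold change over 2. Shares were tested by exact permutation. DESeq2 1.42.0, R 4.3.3 and Python 3.11.15 (matplotlib 3.10.9) were also used, and the fits were tested on simulated data. The members held 15603 to 32923 estimated counts in each HFSC library and 91421 to 181347 recovered counts in each EpdSC library, and the floor of 3 counts covers counting error only.

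Members, lists and tests were chosen with earlier results of these data known. The genes named were 20 fixed members, in each cell type the 5 largest log2 fold changes on each side among members with a mean of at least 100 and no overlap between groups, members called, Msx2, and from each other list the genes called and the 2 with the highest mean. Hspa13, Dnajc6, Dnajc7, Dnajc8, Dnaja2, Dnajb3, Dnajb13, Dnajc12, Dnajc15, Dnajc25, Dnajc27, Dnajc28, Dnajc30 in HFSCs, Hspa12b, Hsf2, Fos, Hsf1, Hsbp1, Grpel1, the markers and members called only under another setting were named after their values were seen. Counts of genes with near-identical copies are uncertain, since reads may be split between them, and 1 item is not reported here. Exon lengths and overlaps came from GENCODE M21 and promoters from RefSeq (GRCm38.p6). Alternatives were other tools, scalings, filters, pseudocounts and thresholds, a replicate block and each library left out.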

Additional observations from a re-analysis of the deposited data

Results flagged for a closer look

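In 8 members named by the rule and tested in both cell types, both Msx2-KO-labelled libraries lay without overlap on a side of WT that differed between the cell types. This difference was not tested, and its share over all genes was not counted. Without overlap, 18.3% of protein-coding genes were higher and 31.8% lower in HFSCs, and 31.2% and 40.3% in EpdSCs. Dnaja2, Dnajc8 and Dnajc25, outside that rule, also lay on opposite sides in the cell types, as did Dnajc30, which was not tested in HFSCs. Hspe1 had a log2 fold change of 3.91 in HFSCs and -1.64 in EpdSCs. Hspa4 had 0.52 in HFSCs and -3.19 in EpdSCs, and Hspa9 0.89 and -0.32. In the other direction, Dnajb11 had -0.62 in HFSCs and 3.21 in EpdSCs, Dnajb9 -2.60 and 1.69, Dnaja3 -0.39 and 1.93, Dnajb4 -1.40 and 0.44, and Dnajc3 -0.14 and 0.99. With library totals Hspa4 turned to -0.25 in HFSCs, and without mitochondrial and ribosomal RNA genes Dnajb4 turned to -0.10 in EpdSCs. In HFSCs the WT mice were also younger, and age and genotype cannot be told apart there.

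Among the pseudogenes left out of the family, Hspd1-ps3 stood above WT in HFSCs. It had 89.9 and 89.0 normalized counts in WT, against 236 and 209 in Msx2-KO-labelled libraries, a mean of 223 in the latter. In EpdSCs its order was the reverse, with 430.1 and 409 deposited in WT and 19.4 and 52.0 in the others. It is named as a copy of Hspd1, and how reads were shared between them is not given in the sources used here.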

How the results depend on the processing

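In HFSCs the count of genes called, 0 with edgeR, was 674 with DESeq2, 1407 with limma-trend, 51 with library totals, 2 with at least 10 counts in every library and 132 to 9272 with 1 library left out. For the members these counts were 2 with DESeq2, 3 with limma-trend and 0 to 22 with 1 library left out. The members' median of -0.23 was -0.37 with limma-trend, -0.98 with library totals, -0.077 with at least 10 counts in every library and -0.31 to -0.085 with 1 library left out. In EpdSCs the 1518 genes called were 0 with edgeR on recovered counts and 0 to 10376 with 1 library left out, and the 1 member called was 0 with a pseudocount of 0.1 or edgeR on recovered counts, 5 with a pseudocount of 10 and 0 to 39 with 1 library left out. The median of -0.14 was -0.67 without mitochondrial and ribosomal RNA genes and -0.36 to 0.38 with 1 library left out. The causes were not tested.

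With library totals 14 members changed sign in HFSCs, and among the members named by the rule the reversed ones were Hspa5 at -0.31, Hspa8 at -0.11, Hsp90b1 at -0.67 and Hspa4 at -0.25. In EpdSCs they were Hspa1b at 0.11 and Hspa5 at 0.078 with edgeR on recovered counts, and Hspb8 at -0.24 and Hsp90aa1 at -0.12 without mitochondrial and ribosomal RNA genes. Leaving out 1 library reversed Hspa1a, Hspa2, Hspa4l, Hspa8, Hspb1, Hsp90ab1, Hsp90b1 and Dnaja1 in HFSCs and Hspa1a, Hspa1b, Hspa5, Hspb8, Hsph1, Hsp90aa1 and Hsp90ab1 in EpdSCs. In HFSCs the ranges with 1 library left out were Hspa1a -1.003 to 0.60, Hspa2 -0.93 to 0.23, Hspa4l -0.93 to 0.063, Hspa8 -0.061 to 1.43, Hspb1 -1.50 to 0.26, Hsp90ab1 -0.59 to 0.059, Hsp90b1 -0.24 to 0.47 and Dnaja1 -0.053 to 1.77. In EpdSCs the ranges with 1 library left out were Hspa1a -0.99 to 0.17, Hspa1b -1.45 to 0.94, Hspa5 -0.57 to 0.53, Hspb8 -0.37 to 0.98, Hsph1 -1.89 to 0.048, Hsp90aa1 -0.43 to 1.26 and Hsp90ab1 -0.42 to 1.95.

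Members without overlap, with 1 library left out (an alternative chosen after seeing the data), numbered 10 to 21 higher and 23 to 34 lower in HFSCs, beside 21.8% to 39.8% and 36.6% to 55.3% of protein-coding genes. In EpdSCs they numbered 19 to 33 and 25 to 37, beside 34.0% to 43.3% and 43.6% to 52.0%. The replicate numbers do not pair the libraries by any label, and the correlation of same-numbered deviations was -0.06 in HFSCs and -0.02 in EpdSCs. With the replicate block 231 HFSC genes and 0 members were called, with a members' median of -0.41, and 1271 EpdSC genes and 1 member. In HFSCs 4 members had too few counts to be tested.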
